A study of Mus musculus with 6 samples.

Results

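The 34 genes described here are those of sterol synthesis, its control by sterols, and the uptake, handling and efflux of cholesterol. They were matched by gene symbol in a table of 54532 genes, and all 34 were found once. The counts come from RNA-seq of N9 microglia, an immortalized cell line derived from mouse brain. The 3 LPS libraries are from cells given lipopolysaccharide (LPS), a component of the gram-negative outer membrane, at 1 µg/ml for 6 h, and the 3 control libraries are from untreated cells of the same line. Both groups were grown in medium with fetal bovine serum, a source of lipoprotein cholesterol. The labels call the libraries replicates without saying that they are separate cultures, so p-values measure the spread between these libraries, which may be technical.

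Cholesterol is built from acetyl-CoA through mevalonate and squalene. When sterols run low in the endoplasmic reticulum, the escort protein SCAP carries SREBP transcription factors to the Golgi, where they are cleaved and released to switch on the synthesis enzymes; INSIG proteins hold the complex back when sterols are plentiful. Oxysterols and synthesis intermediates activate the liver X receptors (LXR), which raise the ABC transporters that export cholesterol. Macrophages and microglia are known for handling large loads of cholesterol from engulfed debris.

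Total counts ran from 16363767 to 17956772 per library. Levels are given as CPM, the count scaled to a common effective library size by TMM normalization, and 3 counts correspond to between 0.161 and 0.19 CPM. Tnf, an LPS-induced cytokine gene, was at 14.3 to 17.3 CPM in control libraries and 230.1 to 237.7 CPM in LPS libraries. Of 14 microglia and macrophage markers, Csf1r, Ptprc, Cd68, Spi1 and Tyrobp were well counted, whereas Aif1 and P2ry12 had at most 9 counts in a library and Sall1 at most 1. The summed level of these 14 markers was 2015 to 2080 CPM in control and 2261 to 2333 CPM in LPS libraries. The 5 astrocyte markers summed to 1576 to 1834 counts per library and the 5 oligodendrocyte markers to 464 to 686. Most of these counts were of Gja1 (1151 to 1279, higher with LPS by 0.18 on the log2 scale), Aldh1l1 (350 to 534, log2 fold change -0.29) and Mbp (457 to 672, log2 fold change -0.34), with edgeR adjusted p-values of 0.0099, 0.013 and 0.0028, while Gfap, Aqp4 and Mog had at most 10 counts in a library. The part of these markers in the sterol results was not tested. The 18 hepatocyte markers summed to 0.409, 18.1 and 29.1 CPM in control replicates 1, 2 and 3, and to between 0.305 and 0.913 CPM in the LPS libraries.

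LPS-stimulated N9 microglia held less mRNA for nearly the whole sterol synthesis pathway than control cells, with small differences per gene. Of the 18 synthesis enzymes, 16 were lower with LPS, 0 were higher and 2 (Pmvk and Ebp) did not pass the test (edgeR quasi-likelihood test, adjusted p under 0.05 over 12296 genes). Over all genes tested, 15.7% were lower and 18.7% were higher at the same threshold. The median log2 fold change was -0.28 over the 18 enzymes and 0.00 over all genes tested. The mRNAs for the 18 enzymes summed to 2780, 2752 and 2742 CPM in the control libraries and to 2374, 2299 and 2295 CPM in the LPS libraries, 15.8% less. Every LPS sum was below every control sum. Control replicate 1, whose hepatocyte markers summed to 0.409 CPM, had the highest enzyme sum of all. The part of hepatocyte RNA in the enzyme sums was not tested. In bulk RNA, less RNA per cell and fewer cells with the RNA cannot be told apart.

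Across the whole set, 33 of the 34 genes had enough counts to be tested. At an adjusted p under 0.05 by edgeR, 23 of the 33 were called (69.7%), 19 lower and 4 higher with LPS, against a background of 34.3% of all genes tested. The study counts a DEG only where the log2 fold change also exceeds 1.5 in size. By that rule edgeR called 0 of the 33 and DESeq2 also called 0, beside 2.65% of all genes by edgeR, 2.40% higher and 0.252% lower. None of the 33 passed both the test and a 2-fold change, which 4.88% of all genes did. At an unadjusted p under 0.05, edgeR gave 26 of the 33 at any fold change and 0 with a log2 fold change over 1.5 in size. The share of all genes at that unadjusted threshold is not given here, so these counts have no background beside them. The LPS libraries lay wholly below the controls for 20 of the 33 genes, wholly above them for 5 and overlapped them for 8, while 45.3% of all genes tested did not overlap, 21.5% with LPS below and 23.7% with LPS above. The log2 fold changes of the 33 genes ran from -0.78 for Fdps to 0.96 for Abca1.

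**Figure D1:**
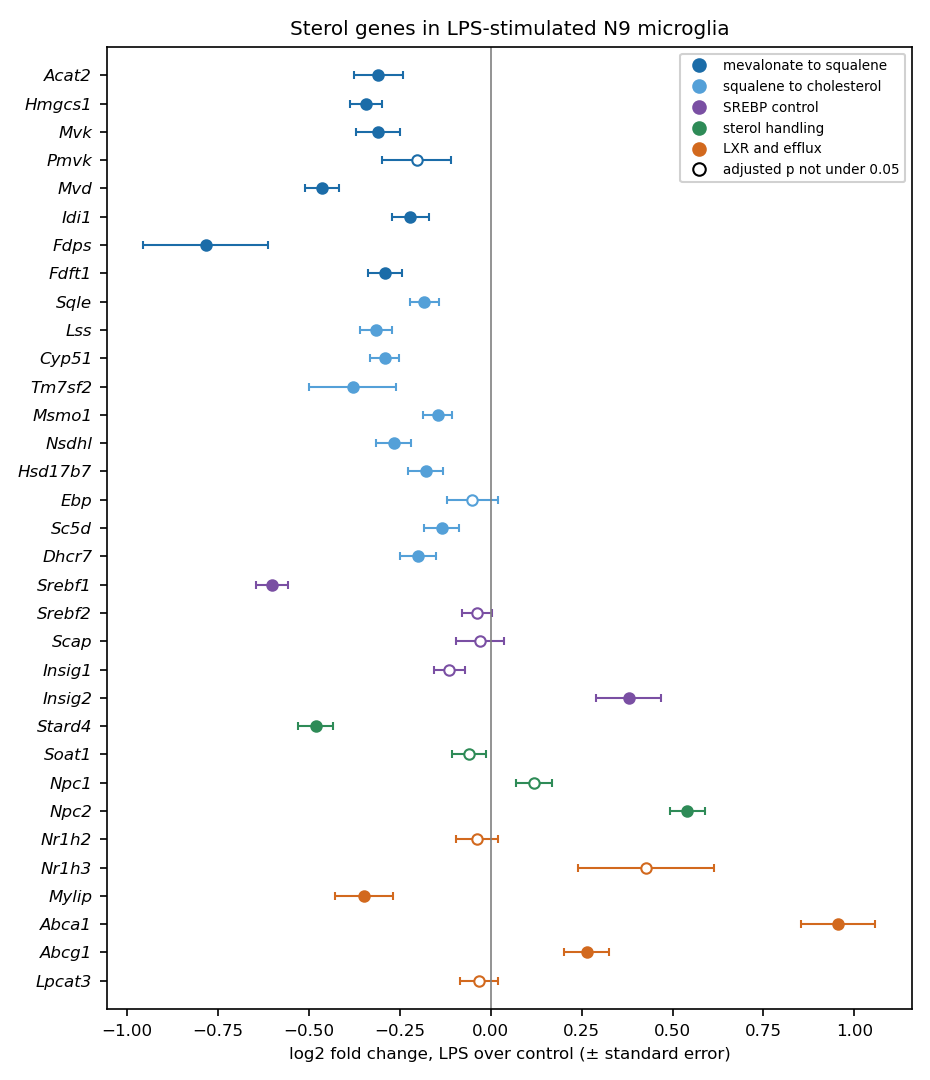
Log2 fold change of LPS over control (x axis, log2 scale) with its standard error for the 33 tested sterol genes, coloured by role, from 3 libraries per group. Filled points had an edgeR adjusted p under 0.05; the points of all 18 synthesis enzymes lie left of 0, and Abca1 lies farthest right at 0.96.

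The first part of the pathway, from acetyl-CoA to squalene, had a median log2 fold change of -0.31 over its 8 genes, 7 of which fell. Hmgcs1 (ENSMUSG00000093930; chromosome 13, 119690379 to 119708260 in the deposited table) encodes HMG-CoA synthase, the enzyme that makes the precursor of mevalonate. Its level was 256.6, 271.9 and 258.0 CPM in the control libraries and 200.4, 210.3 and 209.3 CPM in the LPS libraries. The groups did not overlap, and Hmgcs1 fell by 0.34 on the log2 scale (standard error, SE, 0.04, edgeR adjusted p = 2.2e-05). Mvd (ENSMUSG00000006517; chromosome 8, 122433601 to 122443422) encodes the decarboxylase that turns mevalonate diphosphate into isopentenyl diphosphate. It was at 136.8, 128.6 and 128.6 CPM in control and 93.1, 94.7 and 97.7 CPM in LPS libraries, and fell by 0.46 (SE 0.05, edgeR adjusted p = 1.7e-06). Of the enzymes, Fdps alone had a larger fall. In 6 fits, each without a library, the log2 fold change of Mvd stayed between -0.49 and -0.45 and that of Hmgcs1 between -0.37 and -0.32.

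Mvk, a kinase of mevalonate, went from 46.6 ± 0.324 to 37.6 ± 1.54 CPM (SD, n = 3 libraries), and Fdft1, the squalene synthase, from 173.8 ± 3.43 to 142.0 ± 6.47 CPM. On the opposite strand, exons of the abundant gene Ctsb (72084 to 77624 counts per library) cover 18.3% of the exon bases of Fdft1, and whether strand was used in counting is not given, so the level of Fdft1 is uncertain. Acat2, the thiolase of the opening step, was at 181.1, 153.2 and 161.6 CPM in control and 145.8, 123.8 and 130.4 CPM in LPS libraries. Its lowest control library was above its highest LPS library by a narrow gap, and its log2 fold change was -0.31 (SE 0.07, edgeR adjusted p = 0.0024). Idi1, the isomerase of isopentenyl diphosphate, fell less, by 0.22 (SE 0.05, edgeR adjusted p = 0.0034). Pmvk, the second kinase of the series, was at 75.2, 55.7 and 56.8 CPM in control and 51.0, 54.8 and 56.9 CPM in LPS libraries. The groups overlapped, since LPS replicate 3 lay above control replicates 2 and 3. Its log2 fold change was -0.20 (SE 0.10, edgeR adjusted p = 0.12), and in 6 fits, each without a library, it ran from -0.29 without control replicate 2, where Pmvk was called, to -0.06 without control replicate 1 (edgeR adjusted p = 0.496).

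Fdps, which makes farnesyl diphosphate, had the lowest log2 fold change of the set on few reads. It had 123, 159 and 128 counts in control and 59, 73 and 85 in LPS libraries, groups that did not overlap. Fdps fell by 0.78 on the log2 scale (SE 0.17, edgeR adjusted p = 0.0023), and by 0.66 to 0.91 over the 6 fits without a library. In GENCODE M21, 26.7% of the exon bases of Fdps are also exons of Gm43738 on the same strand, a gene listed at 0 counts in each library. How reads in shared exons were counted is not given in the sources used here, so the level of Fdps is uncertain.

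From squalene to cholesterol, 9 of 10 genes fell, with a median log2 fold change of -0.19. Sqle, the epoxidase that commits squalene to sterols, was at 429.8, 439.6 and 430.9 CPM in control and 397.7, 380.4 and 367.7 CPM in LPS libraries. Control libraries lay close together and all LPS libraries lay below them, a fall of 0.18 on the log2 scale (SE 0.04, edgeR adjusted p = 0.0026). Cyp51, which demethylates lanosterol, was at 355.9, 349.6 and 351.9 CPM in control and 296.8, 284.2 and 283.0 CPM with LPS, a fall of 0.29 (SE 0.04, edgeR adjusted p = 4.0e-05). Lss, the cyclase that makes lanosterol, went from 153.3 ± 4.85 to 123.2 ± 1.66 CPM (SD, n = 3), a fall of 0.32. Nsdhl, which acts in the removal of methyl groups from the sterol ring, went from 99.4 ± 2.21 to 82.6 ± 3.12 CPM.

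Msmo1, the methylsterol oxidase, fell by 0.15, Hsd17b7, a ketosteroid reductase, by 0.18, and Dhcr7, which reduces the last double bond of one branch, by 0.20, with edgeR adjusted p-values of 0.01, 0.0097 and 0.0052. Hsd17b7 was not called without control replicate 3, where its log2 fold change was -0.14. Sc5d, a sterol desaturase, was at 103.2, 102.7 and 102.1 CPM in control and 98.5, 88.2 and 93.8 CPM in LPS libraries. Its call was marginal at an edgeR adjusted p of 0.046 and a log2 fold change of -0.14. Of the 6 fits without a library, 1 called Sc5d, that without LPS replicate 1, with log2 fold changes from -0.17 to -0.09 over the 6. Tm7sf2, a sterol reductase with 128 to 225 counts per library, fell by 0.38 (SE 0.12, edgeR adjusted p = 0.024). It was called in 2 of the 6 such fits, those without control replicate 2 and without LPS replicate 2, at log2 fold changes from -0.46 to -0.31. DESeq2 called neither Sc5d nor Tm7sf2, and 12.1% of the exon bases of Tm7sf2 are also exons of Vps51. Ebp, a sterol isomerase, was at 52.8, 44.2 and 52.1 CPM in control and 48.0, 47.4 and 48.6 CPM in LPS libraries, with overlap (log2 fold change -0.05, standard error 0.07, edgeR adjusted p = 0.62).

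**Figure D2:**
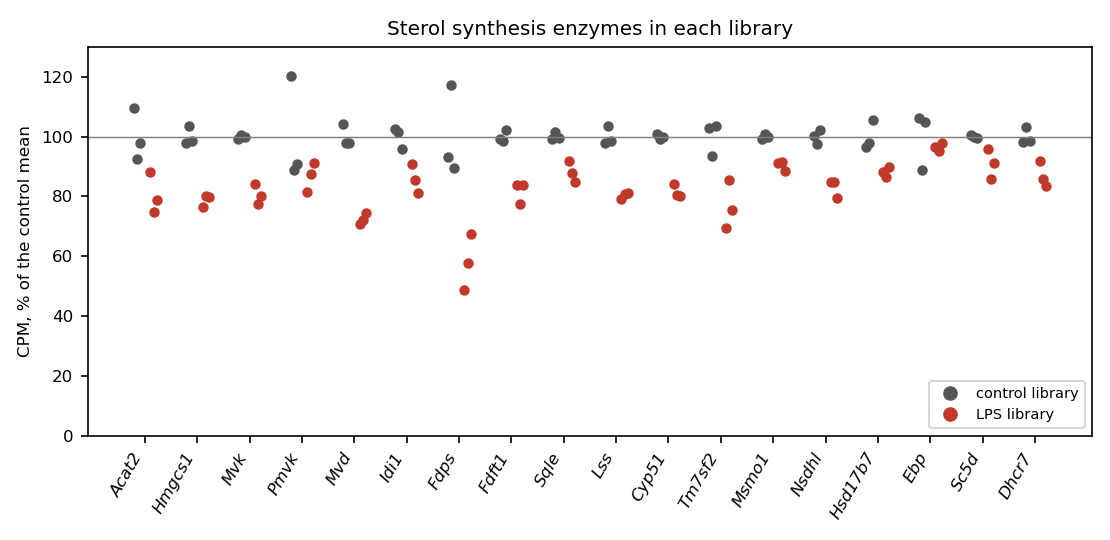
CPM of the 18 sterol synthesis enzymes in each library as a percentage of that gene's control mean (y axis), in pathway order (x axis); grey points are the 3 control libraries and red points the 3 LPS libraries. The red points lie below the grey ones for 16 enzymes and overlap them for Pmvk and Ebp.

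The windows before the transcription starts of 3 genes are printed to show where binding motifs of the sterol pathway lie in some of the genes, of which Hmgcs1 and Mvd fell and Abca1 rose. Each is the 250 bases before a RefSeq start on GRCm38.p6, read 5′ to 3′ on the strand of the gene, with matches to TCACNCCAC, the core of a sterol regulatory element bound by SREBP, and to CCAAT, the box bound by NF-Y, in capitals on either strand (CCAAT reads ATTGG on the other). They are chr13:119690101-119690350 on the plus strand for Hmgcs1, and on the minus strand chr8:122443423-122443672 for Mvd and chr4:53159896-53160145 for Abca1.
Hmgcs1: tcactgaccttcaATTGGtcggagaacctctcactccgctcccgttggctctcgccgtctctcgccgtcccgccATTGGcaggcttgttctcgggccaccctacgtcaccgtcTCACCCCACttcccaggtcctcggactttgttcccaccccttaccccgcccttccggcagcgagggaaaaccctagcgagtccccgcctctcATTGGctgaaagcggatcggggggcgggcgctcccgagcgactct
Mvd: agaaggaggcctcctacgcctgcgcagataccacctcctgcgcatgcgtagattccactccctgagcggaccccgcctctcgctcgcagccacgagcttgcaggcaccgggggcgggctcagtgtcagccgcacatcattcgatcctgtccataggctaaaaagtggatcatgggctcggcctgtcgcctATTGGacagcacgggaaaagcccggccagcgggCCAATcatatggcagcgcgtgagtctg
Abca1: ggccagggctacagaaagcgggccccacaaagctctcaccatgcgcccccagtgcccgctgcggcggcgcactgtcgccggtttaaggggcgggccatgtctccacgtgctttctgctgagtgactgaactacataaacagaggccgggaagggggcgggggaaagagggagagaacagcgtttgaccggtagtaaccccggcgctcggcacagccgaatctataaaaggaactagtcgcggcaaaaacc

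Hmgcs1 holds 1 sterol element core and 3 NF-Y boxes in these bases, Mvd holds 2 NF-Y boxes, and Abca1 holds 0 of either. Other genes that rose do hold NF-Y boxes, 2 in the window of Npc2 and 3 in a window of Insig2, so the 3 windows printed do not separate genes that fell from genes that rose. RefSeq windows of 250 bases before to 50 after a start were at hand for 28 of the 34 genes, 37 windows in all. The core TCACNCCAC was in 1 of the 37, that of Hmgcs1, and in 1.24% of 32851 windows of all genes. CCAAT was in 23 of the 37 (62.2%), against 37.4% of all windows. Of the 18 windows of synthesis enzymes, 14 had the box. Counted by gene, 14 of 15 of these enzymes had it in at least 1 window, and the share of all genes counted in that way is not given here. The core of the interferon-stimulated response element was in 1 of the 37, that of Ebp, and in 3.44% of all windows. A loose form of the NF-kappa B motif was in 15 of the 37 and 20.7% of all, and a direct repeat of the kind LXR binds was in 0 of the 37 and 0.0457% of all. Both strands were searched, and a match describes letters, not binding.

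The SREBP genes themselves differed. Srebf1 (ENSMUSG00000020538; chromosome 11, 60199089 to 60222581), which encodes the SREBP best known for fatty acid synthesis, was at 213.8, 221.4 and 214.7 CPM in control and 140.5, 146.5 and 141.3 CPM in LPS libraries. It fell by 0.60 on the log2 scale (SE 0.04, edgeR adjusted p = 4.0e-08) and by 0.59 to 0.62 with each library left out. Counts per gene do not separate its isoforms. Srebf2, which encodes the SREBP best known for the cholesterol enzymes, was at 385.3, 417.1 and 409.4 CPM in control and 396.0, 401.6 and 383.2 CPM with LPS. The libraries overlapped, and the log2 fold change of Srebf2 was -0.04, SE 0.04 (edgeR adjusted p = 0.54). Scap was at 64.9, 72.6 and 69.9 CPM in control and 69.9, 72.3 and 61.2 CPM with LPS, also with overlap.

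The INSIG genes, whose proteins retain SCAP in the endoplasmic reticulum, had fold changes of opposite sign. Insig2 was at 21.4, 24.9 and 27.2 CPM in control and 33.2, 31.0 and 31.5 CPM in LPS libraries, all LPS libraries above all controls. It rose by 0.38 on the log2 scale (SE 0.09, edgeR adjusted p = 0.004). Insig1, itself a known SREBP target, was at 211.6, 208.0 and 207.9 CPM in control and 197.8, 195.0 and 187.1 CPM with LPS. Every LPS library was below every control library, yet Insig1 did not pass the test, at a log2 fold change of -0.11 (SE 0.04, edgeR adjusted p = 0.053). DESeq2 called Insig1 lower.

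Of the 4 sterol handling genes, 1 fell, 1 rose and 2 did not pass the test. Stard4 (ENSMUSG00000024378; chromosome 18, 33199355 to 33213862), a cytosolic sterol carrier and known SREBP target, was at 238.9, 238.8 and 232.7 CPM in control and 163.1, 165.1 and 180.5 CPM in LPS libraries. It fell by 0.48 on the log2 scale (SE 0.05, edgeR adjusted p = 1.6e-06). Npc2 (ENSMUSG00000021242; chromosome 12, 84754562 to 84773152), the soluble lysosomal protein that hands cholesterol to NPC1, was at 408.5, 358.4 and 378.1 CPM in control and 573.6, 547.8 and 544.4 CPM with LPS. The LPS libraries all stood well above the controls, and Npc2 rose by 0.54 (SE 0.05, edgeR adjusted p = 4.0e-07). Npc1, its membrane partner, was at 113.3, 121.5 and 120.2 CPM in control and 122.6, 133.3 and 129.6 CPM with LPS. These groups touched without overlapping, and the log2 fold change of 0.12 did not pass the test (SE 0.05, edgeR adjusted p = 0.077). It passed without LPS replicate 1, at 0.15, and was 0.08 without control replicate 1 (edgeR adjusted p = 0.271). Soat1, which esterifies cholesterol for storage, went from 405.5 ± 25.0 to 389.0 ± 7.09 CPM (SD, n = 3), with overlap (edgeR adjusted p = 0.36).

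Abca1 (ENSMUSG00000015243; chromosome 4, 53030787 to 53159895), the transporter that loads cholesterol and phospholipid onto apolipoproteins, had the largest rise. It was at 51.7, 73.1 and 64.8 CPM in control and 106.2, 132.8 and 129.0 CPM in LPS libraries. Replicate 1 was the lowest library of each group, and the groups were far apart. Abca1 rose 1.94-fold, by 0.96 on the log2 scale (SE 0.10, edgeR adjusted p = 3.4e-06), and by 0.82 to 1.06 with each library left out. Abcg1, which passes cholesterol on to lipoprotein particles, was at 81.9, 81.1 and 76.2 CPM in control and 98.9, 102.2 and 86.0 CPM with LPS. It rose less, by 0.26 (SE 0.06, edgeR adjusted p = 0.004), and no LPS library fell within the control range.

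The other LXR-linked genes fell or did not pass the test. Mylip, an LXR-induced ubiquitin ligase that marks lipoprotein receptors for degradation, was at 24.8, 25.7 and 25.4 CPM in control and 19.0, 20.3 and 20.4 CPM in LPS libraries, and fell by 0.35 (SE 0.08, edgeR adjusted p = 0.0033). Lpcat3, a phospholipid-remodelling enzyme and known LXR target, went from 89.4 ± 5.35 to 87.4 ± 0.184 CPM (SD, n = 3), with overlap (edgeR adjusted p = 0.67). Nr1h2, which encodes LXR beta, went from 56.2 ± 2.20 to 54.7 ± 2.36 CPM, with overlap (edgeR adjusted p = 0.65). Nr1h3, which encodes LXR alpha, had only 73, 74 and 92 counts in control and 72, 103 and 118 with LPS. The groups overlapped, and the log2 fold change was 0.43 (SE 0.19, edgeR adjusted p = 0.094). Without LPS replicate 1 Nr1h3 was called, at 0.59, and without LPS replicate 3 the log2 fold change was 0.28 (edgeR adjusted p = 0.339).

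Ch25h, which makes an oxysterol and is widely known as an LPS- and interferon-induced gene of macrophages, had 0, 0 and 0 counts in control and 3, 3 and 1 in LPS libraries. Both groups lay at or under 3 counts per library, so no fold change is given, and a difference was not detectable at this depth. A lincRNA, Gm26902, lies over 11.5% of its exon bases on the other strand with 7 to 11 counts per library.

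**Figure D3:**
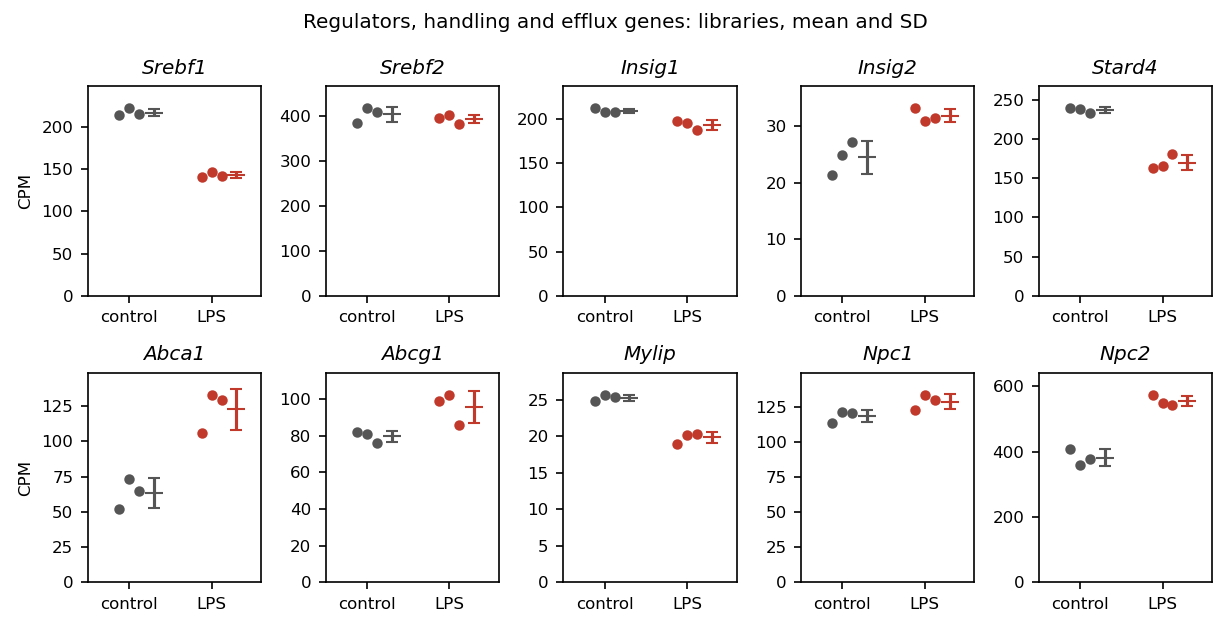
CPM (y axis, from 0) of 10 regulator, handling and efflux genes in the 3 control (grey) and 3 LPS (red) libraries, with mean and SD beside the points. Srebf1, Stard4 and Mylip stand lower with LPS and Abca1, Abcg1, Insig2 and Npc2 higher, while the points of Srebf2 overlap.

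Ratios between related genes, computed per library from counts per kilobase, show these contrasts within a library. The ratio of Srebf1 to Srebf2 was 0.708, 0.677 and 0.669 in control and 0.453, 0.465 and 0.470 in LPS libraries. Insig1 over Insig2 was 11.1, 9.36 and 8.59 in control and 6.70, 7.07 and 6.66 with LPS. For Npc2 over Npc1 the ratio went from 6.38 ± 0.663 to 8.54 ± 0.603, and for Abca1 over Abcg1 from 0.312 ± 0.0564 to 0.507 ± 0.0837 (SD, n = 3). The groups did not overlap for any of these 4 ratios, which were chosen after the values were seen. An exact permutation test over the 6 libraries gave p = 0.1 for each, two-sided, the smallest that 3 against 3 allows, and 0.1 after adjustment over the 4.

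Levels between genes were compared per kilobase of the deposited gene length. For the 30 genes with the same start and end in GENCODE M21, this length equals the annotated exon bases of the gene. Examples are Npc2 (5438 bases), Lss (10787) and Fdps (4208). Transcript lengths in these cells are not given, so the order and ranks of genes below depend on the annotation. In control libraries Cyp51 (79.8 ± 0.725 CPM per kilobase) and Sqle (78.2 ± 0.969) led the set, next to each other within about their spread, and Mvd (70.7 ± 2.53) and Npc2 (70.2 ± 4.64) followed without a difference beyond their spread. In LPS libraries Npc2 was highest, at 102.1 ± 2.94 CPM per kilobase, ahead of Sqle at 68.9 ± 2.72 and Cyp51 at 65.2 ± 1.73. Mvd moved from rank 3 to rank 7 and Srebf1 from rank 14 to rank 17, whereas Abca1 moved from rank 30 to rank 26. Ch25h, Fdps, Nr1h3 and Tm7sf2 were the 4 lowest genes in both groups.

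**Figure D4:**
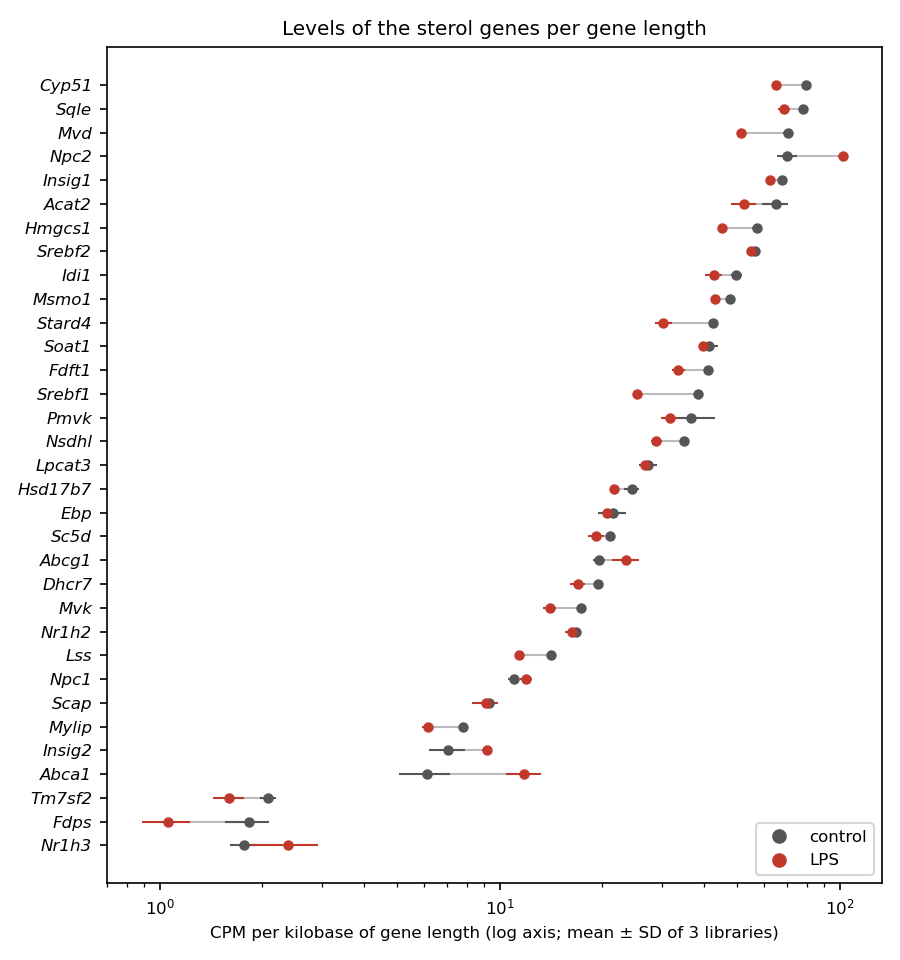
Level per gene length (x axis, CPM per kilobase, log scale) of the 33 tested sterol genes in control (grey) and LPS (red) libraries, mean ± SD of 3 libraries, ordered by the control level. Most red points lie left of the grey point of the same gene, and those of Npc2 and Abca1 lie clearly to the right.

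Further genes of sterol and fatty acid metabolism, 41 in a separate list, gave 39 tested genes, of which 20 were lower and 5 higher with LPS by edgeR (64.1% called), against 34.3% of all genes tested, 15.7% lower and 18.7% higher. Fatty acid synthesis, much of it under SREBP-1 control, had 9 of 12 genes lower and 1 higher. The 2 others, Fasn and Acaca, did not pass the test, and their libraries overlapped between groups. The log2 fold change was 0.03 for Fasn (SE 0.10, edgeR adjusted p = 0.85) and -0.20 for Acaca (SE 0.08, edgeR adjusted p = 0.051). These 2 genes were named after their values were seen. Of the other groups of the list, sterol synthesis had 2 of 8 genes lower and 0 higher, LXR and efflux 4 of 7 tested genes lower and 0 higher, and sterol uptake and transport 5 of 12 tested genes lower and 4 higher. Scd1, a stearoyl-CoA desaturase, was at 352.0, 377.1 and 353.7 CPM in control and 211.9, 213.9 and 195.1 CPM with LPS, a fall of 0.80 (SE 0.05, edgeR adjusted p = 5.1e-09). Its paralog Scd2 fell by 0.67 from 2459 CPM, and Elovl6, a fatty acid elongase, by 0.63. The gene for ATP citrate lyase, Acly, which makes the acetyl-CoA for both pathways, rose by 0.32 (SE 0.04, edgeR adjusted p = 3.5e-05). Rxra, which encodes the partner of LXR on DNA, fell by 0.56 (SE 0.04, edgeR adjusted p = 8.8e-08). Arl4c, a known LXR target, also fell, by 0.55, as did Abca7, a relative of Abca1, by 0.25, with edgeR adjusted p-values of 2.1e-07 and 0.034. Both were named after their values were seen. In sterol uptake and transport, the lower genes were Gramd1a, Osbpl2, Nceh1, Osbp and Scarb1, with log2 fold changes from -0.34 to -0.15. They fall outside the rule for named genes and are named here after their values were seen. In the same group, Stard3 rose by 0.53, Gramd1b by 0.39 and Lipa, the lysosomal lipase that frees cholesterol from its esters, by 0.11, with edgeR adjusted p-values of 9.6e-06, 1.2e-05 and 0.036.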

How the data were processed

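RNA from N9 microglia was sequenced by Novogene for the authors, with 3 control and 3 LPS libraries. The authors deposited read counts per gene, whole numbers without normalization, for 54532 genes, with no row lacking a gene name, and a gene length in bases. The submitters' processing notes name featureCounts 1.5.0-p3 and mm10; the aligner, annotation and use of strand are not given in the sources used here. Of the 34 genes, 30 had the same start and end in GENCODE M21 (GRCm38). A second table holds the authors' fold changes and p-values for 20014 genes; it was not used, nor were its 18 columns of values per library and 2 of group means.

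Counts were tested with edgeR 4.0.16 (R 4.3.3) by the quasi-likelihood test, with TMM normalization, filterByExpr, a prior count of 0.125 and Benjamini-Hochberg adjustment over 12296 genes. TMM factors ran from 0.9646 to 1.0363. A standard error (SE) is the log2 fold change divided by the square root of F. Libraries of a group differed by more than sampling noise (chi-square per gene 3.55 to 7.71), and intervals of counting cover counting error only. Alternatives were DESeq2 1.42.0, RLE factors, library size alone, no filter, a mean of at least 10 counts, robust dispersion, a prior count of 2, blocking on replicate number and leaving out each library. In simulated data for this comparison, edgeR recovered 38 of 40 genes changed by 0.5 on the log2 scale and 80 of 80 changed by 1, among 12288 tested.

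Every gene of the set is named. Of the 41 further genes, the 5 largest called changes in each direction with libraries that do not overlap are named; a few genes of that list are counted but not reported here by name. Genes, lists and motifs were chosen with earlier results of these data known. Figures used matplotlib 3.10.9.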

Additional observations from a re-analysis of the deposited data

How the results depend on the processing

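Of the 23 sterol genes called, 20 to 23 were also called in each of the 14 other fits, and no called gene changed direction in any of them. The calls that were lost were those of Tm7sf2, Sc5d and Hsd17b7, as given with these genes. The number of lower genes lay between 16 and 20 with each fit except library size alone, which gave 23, and the number of higher genes between 4 and 6. Library size alone, in place of TMM, moved the median log2 fold change of all genes tested from 0.00 to -0.09 and all sterol genes with it. It gave 1520 genes higher and 3342 lower over the whole table, so that 31.3% of calls were higher against 54.3% with TMM, and 3 higher genes among the 41 further genes in place of 5. Under that scaling Pmvk, Srebf2, Insig1 and Soat1 were also called lower, and Abca1, Abcg1, Insig2 and Npc2 were still higher. Pmvk was also called lower with no filter on low counts, at -0.21 (edgeR adjusted p = 0.00557). Insig1 was called with DESeq2, RLE factors and robust dispersion as well. Without each library in turn, the log2 fold change of Scap ran from -0.0833 to 0.0403 and that of Lpcat3 from -0.0881 to 0.0002, neither called.

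Same-numbered control and LPS libraries were not shown to be paired, with correlations of their deviations from the group means of 0.136, 0.059 and -0.004. With a replicate block 25 sterol genes were called, 20 lower and 5 higher, adding Insig1 and Npc1. With no filter on low counts, where edgeR shrank all dispersions fully to the trend, Ch25h had an edgeR adjusted p of 0.118; DESeq2 gave it an unadjusted p of 0.0817. In the 250 bases before the start alone, the motif counts of the sterol genes were the same, while the shares of all windows were 1.05% for the sterol element core, 33.8% for the NF-Y box, 2.98% for the interferon element and 17.6% for NF-kappa B. Depth limits Ch25h, Fdps, Nr1h3 and Tm7sf2, the genes with the fewest counts.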
